A study of Mus musculus with 25 samples.

Results

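The posterior part of the embryonic palate was compared between its oral and lateral compartments on one side and its medial and nasal compartments on the other. The tissue came from wild type CD1 mice at E14.5, cut from sections by laser capture microdissection, and no sample carried a transgene or a treatment. The posterior set held 12 of the 25 RNA-Seq libraries of the series, 3 each from posterior oral, posterior lateral, posterior medial and posterior nasal palate, so that 6 libraries were set against 6. The oral and nasal pieces and the lateral and medial pieces are different partitions of the same shelves, so a posterior oral piece holds both lateral and medial tissue. Of the 37406 genes in the table, the 11157 with at least 5 RPKM (reads scaled to gene length and to the reads of the library) in at least 3 of the 12 libraries were tested. A gene was said to agree when the oral and the lateral mean both lay on the same side of the medial and the nasal means, and the oral minus nasal and lateral minus medial differences were each at least 1 on the log2(RPKM + 0.1) scale, which is 2-fold. By that rule 102 of the 11157 genes agreed (0.914%), 90 of them higher in oral and lateral (0.807% of genes tested) and 12 lower (0.108%).

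The secondary palate forms from paired shelves that grow from the maxillary prominences, turn up above the tongue and fuse in the midline. Signals pass between the epithelium and the mesenchyme of the shelf: Fgf10, made by the mesenchyme, acts on the Fgfr2b receptor of the epithelium, and Sonic hedgehog from the oral epithelium acts back on the mesenchyme, where the forkhead factors Foxf1 and Foxf2 are among its targets. Mesenchyme of the shelves forms the bone of the hard palate, and the posterior part gives rise to the soft palate with its muscles.

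Across the 12 libraries 2 genes were higher in oral and lateral with an adjusted p under 0.05 by limma (0.0179% of genes tested), Fgf10 and Bai3, and 1 was lower (0.00896%), Pax3. At the thresholds of the study's methods, an unadjusted P under 0.05 and a fold over 2, 105 genes were higher (0.941%) and 21 lower (0.188%), and 57 of the higher (0.511% of genes tested) and 6 of the lower ones (0.0538%) agreed. In 25 genes every oral and lateral library lay above every medial and nasal one (0.224%) and in 7 below (0.0627%), and 13 (0.117%) and 1 (0.00896%) of these agreed. Agreement and overlap read the same values as the contrast, so these counts are descriptions. By an exact two-sided permutation test over all splits of 6 against 6 no gene had an adjusted p below 0.755. The smallest unadjusted p, 0.0021645 for 32 genes, Fgf10, Bai3 and Pax3 among them, is the lowest that splits of 6 against 6 allow. Adjusted over all genes tested, a p at that floor in so few genes cannot come under 0.05. The permutation test therefore cannot decide for or against any single gene here.

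Posterior medial replicate 2 stood apart from the rest. Its log2 values correlated with those of the other 11 libraries at 0.52 to 0.67 over genes, against 0.73 to 0.93 among the others, and 11264 genes reached 1 RPKM in it against 13447 to 14213. Read totals, worked out from the RPKM of genes hit by a single read, were 2.33 M to 6.25 M reads in oral and lateral and 2.35 M to 6.07 M reads in medial and nasal, so that 1 read on 2000 bases was worth 0.0800 to 0.215 RPKM. These totals are not the sequencing depth, for which the study's methods give a much larger average per sample. Duplicate and multiply aligned reads had been removed. Without that library 5 genes had an adjusted p under 0.05 by limma (0.0448%), Fgf10, Bai3, Hes1, Tek and Pax3, and 86 were higher (0.771%) and 39 lower (0.350%) at the thresholds of the study. Then 40 genes agreed as higher (0.359%) and 20 as lower (0.179%), of which 35 (0.314%) and 7 (0.0627%) were among the 90 and 12 above. That library was the lowest of the 12 in 73 of the 90 genes that agreed as higher (81.1%) and at 0 RPKM in 49 of them (54.4%), against 40.7% and 5.74% of all genes tested. Quantile normalization also changed the split between the directions, to 83 higher and 88 lower at the thresholds of the study and to 31 and 31 genes in agreement. With the sequencing run as a covariate limma gave no adjusted p under 0.05, with 503 genes at an unadjusted P under 0.05, and 151 genes were higher and 45 lower at the thresholds of the study. The run of a library came from its alignment name.

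Fgf10 and Bai3 were the genes higher in oral and lateral that passed the adjusted threshold, and their promoters are shown for that reason. The windows are from RefSeq on GRCm38.p6, 250 bases before and 50 after the start, read in the direction of the gene, and capitals mark matches on either strand to the letters TGTTTAC (a forkhead site) and TGGGAA (an RBPJ site of the Notch pathway). Fgf10 lies on the plus strand at chr13:118714449-118714748 and Bai3, now named Adgrb3, on the minus strand at chr1:25829658-25829957.
Fgf10: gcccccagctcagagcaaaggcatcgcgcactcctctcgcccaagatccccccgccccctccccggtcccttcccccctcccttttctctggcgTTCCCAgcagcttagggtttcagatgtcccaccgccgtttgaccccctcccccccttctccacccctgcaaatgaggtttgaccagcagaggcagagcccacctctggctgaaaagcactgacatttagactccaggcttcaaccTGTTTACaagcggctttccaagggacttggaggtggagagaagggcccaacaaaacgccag
Bai3: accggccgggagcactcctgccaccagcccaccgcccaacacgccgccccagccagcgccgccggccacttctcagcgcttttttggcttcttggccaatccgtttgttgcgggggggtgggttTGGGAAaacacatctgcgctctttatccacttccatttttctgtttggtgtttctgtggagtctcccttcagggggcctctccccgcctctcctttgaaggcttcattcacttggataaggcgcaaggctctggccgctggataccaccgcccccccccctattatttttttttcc
TGTTTAC or its complement GTAAACA stood in 3.65% of all 32851 RefSeq promoter windows, and in Fgf10 it began 11 bases before the start. TGGGAA or its complement TTCCCA stood in 25.6% of the windows and was present in both genes. The Gli letters TGGGTGGTC, with their complement GACCACCCA, were in 0.253% of windows and TATAAA, with TTTATA, in 13.6%, and neither was found in these windows. A match is a description of letters. Promoter entries were found for 13 of the 22 named genes that agreed.

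Fgf10 (gene ID 14165, mm9 chromosome 13, 119503506 to 119581380), the mesenchymal ligand, had 7.40, 7.77 and 10.03 RPKM in the posterior oral libraries and 9.23, 6.24 and 5.26 RPKM in the lateral ones. In medial it had 0.763, 1.21 and 0.567 RPKM, and in nasal 1.98, 2.66 and 1.40 RPKM. Every oral and lateral library lay above every medial and nasal one, and medial was lower than nasal. The difference was 2.47 on the log2 scale (SE 0.33, limma adjusted p = 0.0300), made up of an oral minus nasal difference of 2.04 (SE 0.34, adjusted p = 0.0839) and a lateral minus medial difference of 2.91 (SE 0.34, adjusted p = 0.0144). Within the 3 sequencing runs that held libraries of both sides the difference was 1.85, 2.74 and 1.96. No run held both lateral and medial libraries, so no difference within a run compares lateral with medial directly. It was 2.33 with the run in the fit, with an adjusted p of 0.265.

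Bai3 (gene ID 210933, mm9 chromosome 1, 25124321 to 25886552) encodes an adhesion G protein-coupled receptor best known in the brain. Its levels were 5.34 ± 0.861 RPKM in oral and 5.89 ± 1.22 in lateral, against 1.35 ± 0.592 in medial and 2.03 ± 0.560 in nasal (SD, n = 3 each). No library of one side overlapped the other, and the difference was 1.74 (SE 0.25, limma adjusted p = 0.0441), with 0.96 to 2.01 within runs. With the run in the fit the adjusted p was again 0.265.

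Pax3 (gene ID 18505, mm9 chromosome 1, 78097842 to 78193711), a paired box factor of neural crest and muscle precursors, ran the other way. It had 3.00, 2.26 and 3.12 RPKM in oral and 4.01, 5.16 and 4.09 RPKM in lateral. Medial libraries had 19.7, 16.6 and 12.4 RPKM and nasal ones 10.8, 13.4 and 10.1 RPKM. The sides did not overlap, and medial replicate 2 was not extreme among them. The difference was -1.92 (SE 0.23, limma adjusted p = 0.0202), of nearly one size along both axes, -1.999 from nasal to oral (adjusted p = 0.0193) and -1.84 from medial to lateral (adjusted p = 0.0386). Within runs it was -1.82, -2.36 and -1.11, and -1.90 with the run in the fit (adjusted p = 0.265).

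**Figure D1:**
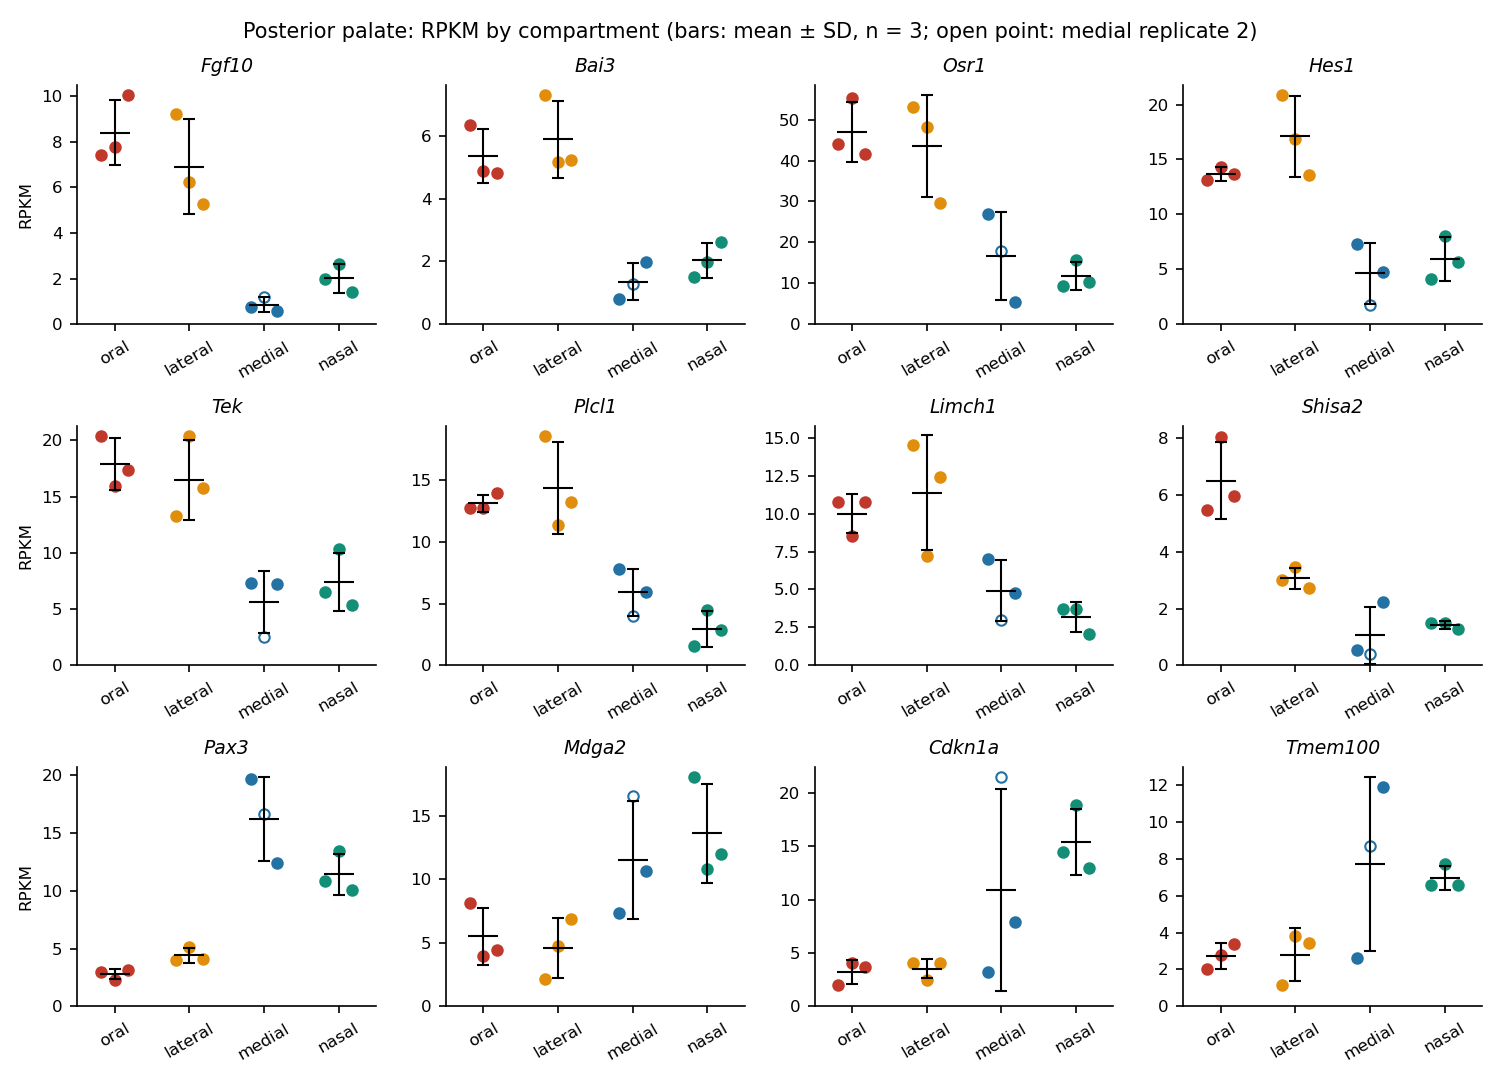
RPKM of 12 genes in the posterior oral, lateral, medial and nasal libraries, 3 points per compartment with the mean ± SD as bars and medial replicate 2 as an open point. Every oral and lateral library lies above every medial and nasal one for Fgf10, Bai3, Osr1, Hes1, Tek, Plcl1, Limch1 and Shisa2 and below them for Pax3, while single libraries overlap for Mdga2, Cdkn1a and Tmem100.

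Other agreeing genes reached the thresholds of the study only. Osr1 (mm9 chromosome 12, 9581248 to 9588306), a zinc finger transcription factor and 1 of the genes the study singled out on these samples, had 46.9 ± 7.34 RPKM in oral and 43.6 ± 12.4 in lateral against 16.7 ± 10.8 in medial and 11.8 ± 3.37 in nasal (SD, n = 3). Its lowest oral or lateral library had 29.6 RPKM and its highest medial or nasal one 26.9 RPKM, so the sides just missed each other. The log2 difference was 1.81 (SE 0.34, limma adjusted p = 0.295). Hes1, a transcriptional repressor of the Notch pathway (mm9 chromosome 16, 30065443 to 30067882), had 13.1 to 20.9 RPKM in oral and lateral and 1.76 to 8.05 RPKM in medial and nasal. The lowest of those values was medial replicate 2, and without it the difference went from 1.65 (adjusted p = 0.295) to 1.37 (adjusted p = 0.0461). Tek (mm9 chromosome 4, 94405991 to 94541630), the angiopoietin receptor of endothelium, had 13.3 to 20.4 RPKM against 2.47 to 10.3 RPKM, a difference of 1.48 (SE 0.29, adjusted p = 0.295) that became 1.23 (adjusted p = 0.0461) without that library.

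Plcl1 (mm9 chromosome 1, 55462790 to 55811129), a phospholipase C related protein without enzyme activity, had 11.4 to 18.6 RPKM in oral and lateral and 1.56 to 7.81 RPKM in medial and nasal, a difference of 1.76 (SE 0.32, adjusted p = 0.295). Limch1, an activator of non-muscle myosin II, had 7.22 to 14.6 RPKM against 2.04 to 7.01 RPKM, so that lateral replicate 2 and medial replicate 1 nearly met, and it no longer agreed without medial replicate 2. Shisa2, which holds back FGF and Wnt receptors inside the cell, was higher in every oral library than in every lateral one, with 6.51 ± 1.36 and 3.07 ± 0.373 RPKM, and with 1.05 ± 1.02 in medial and 1.42 ± 0.131 in nasal (SD, n = 3). Slitrk4, a neuronal adhesion protein on the X chromosome, had 13.9 to 30.2 RPKM against 3.69 to 12.5 RPKM, its highest low-side value being medial replicate 2. These 4 genes had differences of 1.44 to 1.96, with no overlap between the sides and limma adjusted p-values of 0.295 to 0.425.

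Masp1, a serine protease of the lectin complement pathway, overlapped between the sides, with 4.37 to 15.2 RPKM against 1.66 to 6.24 RPKM and a difference of 1.48 (limma adjusted p = 0.674). Ablim3, an actin-binding LIM protein, had 2.16 to 7.32 RPKM against 0 to 1.52 RPKM, and Fam69c 5.57 to 19.2 RPKM against 0 to 8.02 RPKM. The 0 was medial replicate 2 in both, and without it the Ablim3 difference went from 2.50 to 1.93 and the Fam69c difference from 3.32 to 2.68, each short of the adjusted threshold.

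On the low side, Mdga2, a membrane-anchored adhesion protein of neurons, had 5.49 ± 2.26 RPKM in oral and 4.58 ± 2.37 in lateral against 11.5 ± 4.65 in medial and 13.6 ± 3.90 in nasal (SD, n = 3). Cdkn1a, the cyclin-dependent kinase inhibitor p21, had 1.95 to 4.07 RPKM in oral and lateral. Its nasal libraries had 14.4, 18.9 and 13.0 RPKM, but its medial ones had 3.23, 21.5 and 7.95 RPKM, the first of which lay inside the range of the other side. Tmem100, an endothelial membrane protein downstream of Alk1, likewise had 2.60, 8.68 and 11.9 RPKM in medial, 6.57 to 7.69 in nasal, and 1.15 to 3.81 in oral and lateral. Dgat2, an enzyme of triglyceride synthesis, and Zfp385b, a zinc finger protein, had their highest value of the 12 libraries in medial replicate 2, 32.7 and 12.2 RPKM, as Cdkn1a did, and none of these 3 agreed without it. The 5 genes had differences of -1.75 to -1.29 and limma adjusted p-values of 0.674 to 0.946.

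In the 22 named genes that agreed, the sign of the difference was the same in all 3 sequencing runs for 21, the other being Acta1. These genes were chosen for their differences in the same libraries, so this count is a description. It holds no direct comparison of lateral with medial, which shared no run. The share over all genes tested was not worked out. The smallest differences inside the rule were 1.01 for 1190007I07Rik (-1.01 from nasal to oral) and Ppfia2 (1.01 from medial to lateral), and the nearest genes outside it that passed the thresholds of the study were Tgfbr3 and Fam198b at 0.99. 

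Further agreeing genes past the thresholds of the study, all with limma adjusted p-values of 0.946 and chosen after their values were seen, included some that medial replicate 2 did not decide. Gas2, an actin-associated growth arrest protein, had 9.98 to 46.9 RPKM in oral and lateral and 5.47 to 12.61 RPKM in medial and nasal, a difference of 1.24 (SE 0.36). Sez6l, a neuronal membrane protein, had 1.45 to 23.6 RPKM against 0.890 to 2.74 RPKM, a difference of 2.20 (SE 0.61), and Cacna1h, a T-type calcium channel, 3.76 to 15.2 RPKM against 1.65 to 11.1 RPKM, a difference of 1.20 (SE 0.46). All 3 still agreed without that library. Pdgfd, a platelet-derived growth factor, Itga2, an integrin subunit for collagen, and Lbh, a transcription cofactor of limb bud and heart, had differences of 2.12, 1.66 and 1.95, with medial replicate 2 at 0, 0.101 and 0.139 RPKM, and none of the 3 agreed without it. Rbp4, the retinol carrier of plasma, missed those thresholds and agreed as lower at -2.13 (SE 1.27, unadjusted P = 0.118), with 51.5 RPKM in medial replicate 2 and no agreement without it. Of the 102 agreeing entries 81 were named protein or RNA genes and 21 were RIKEN, predicted, microRNA or small nucleolar RNA entries.

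**Figure D2:**
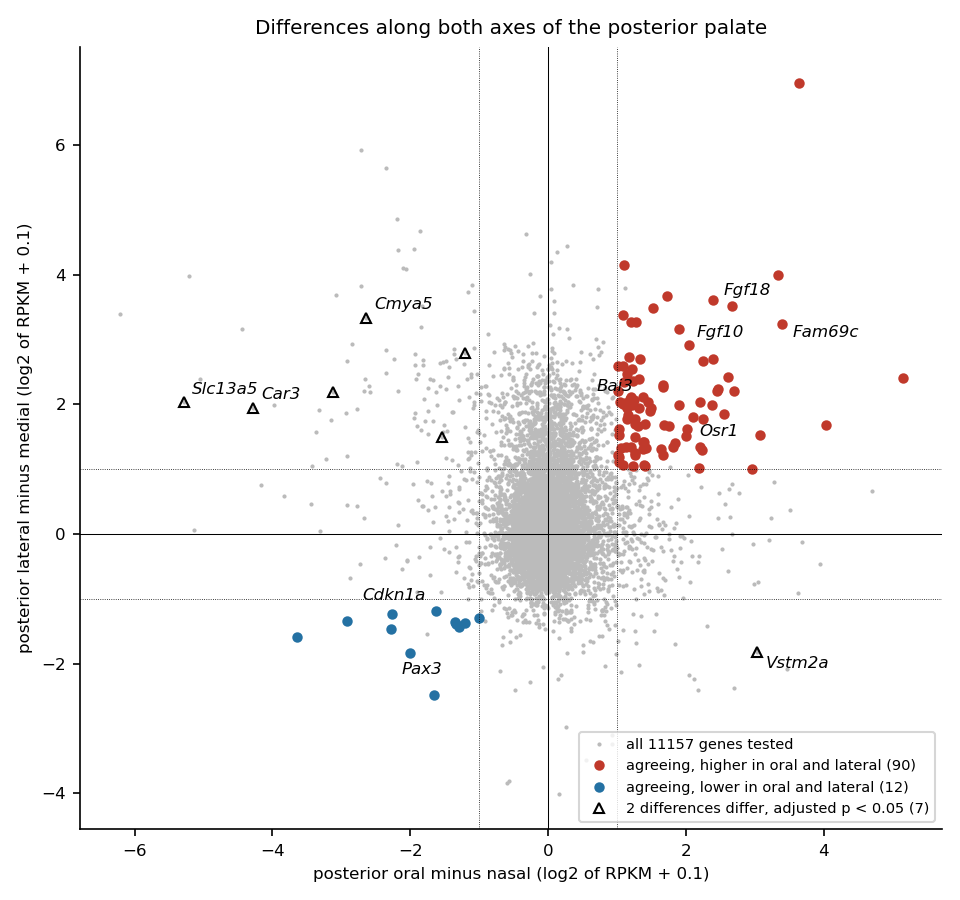
Oral minus nasal difference (x axis) against lateral minus medial difference (y axis) on the log2(RPKM + 0.1) scale for the 11157 genes tested, with agreeing genes coloured and triangles for the 7 genes whose 2 differences differed at an adjusted p under 0.05. Dotted lines mark a difference of 1, and 90 agreeing genes lie in the upper right and 12 in the lower left.

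Each axis of the posterior shelf was then tested alone. An adjusted p under 0.05 by limma was reached by 7 genes from oral to nasal (0.0627%), Vstm2a, Phactr1 and Ncam2 as higher in oral and Pax3, Car3, Ifitm5 and Slc13a5 as lower. From lateral to medial it was reached by 5 (0.0448%), Egfr, Fgf10 and Wisp1 as higher in lateral and Pax3 and Krt14 as lower, so that Pax3 was in both. A difference of at least 1 was seen from oral to nasal in 527 genes (4.72% of genes tested) and from lateral to medial in 1497 (13.4%). Of the 11157 genes tested, both were that large in the same direction in 107 and in opposite directions in 132. Of the 132 genes 112 were high in nasal over oral and in lateral over medial. Medial replicate 2, the lowest of the 12 libraries in 40.7% of all genes tested, enters every lateral minus medial difference. These counts were not repeated without it, and no expected count was worked out. The median SD over genes was 0.65 in medial, against 0.34 in oral, 0.28 in lateral and 0.26 in nasal on the log2 scale. Lateral and medial libraries shared no sequencing run, while oral and nasal ones did. In a direct comparison of lateral with medial, run and compartment therefore cannot be told apart, and this also enters the difference between the axes. Tested directly, the difference between the axes had a limma adjusted p under 0.05 for 7 genes (0.0627%), Vstm2a in 1 direction and Car3, Slc13a5, Cmya5, Clic6, Nrp2 and Wisp1 in the other, the last pair named after their values were seen.

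Car3, a carbonic anhydrase, had 10.7, 7.58 and 7.60 RPKM in nasal and at most 0.653 RPKM elsewhere. The oral minus nasal difference was -4.29 and the lateral minus medial difference 1.95, which differed by -6.23 (SE 0.48, limma adjusted p = 0.00105). The 1.95 came from means of 0.495 RPKM in lateral and 0.0561 RPKM in medial. Slc13a5, a citrate transporter expressed in bone and teeth, had 8.76 to 19.3 RPKM in nasal and at most 1.15 RPKM elsewhere, and Cmya5 and Clic6, a muscle costamere protein and a chloride channel protein, were also highest in nasal, with 7.41 ± 2.39 and 9.32 ± 0.842 RPKM (SD, n = 3). For those 4 genes the lowest compartment was medial, with 0.101 RPKM for Slc13a5, 0.158 for Cmya5 and 0.148 for Clic6. With 1 read on 2000 bases worth 0.0800 to 0.215 RPKM, their lateral minus medial differences rest on medial values near the floor. Vstm2a, a secreted immunoglobulin domain protein, was highest in medial, with 14.98, 13.8 and 10.9 RPKM, then in oral with 6.22 to 8.99 RPKM and in lateral with 3.17 to 4.64 RPKM, and lowest in nasal with 0.363 to 1.21 RPKM. Car3, Slc13a5, Cmya5 and Clic6 reached 5 RPKM in nasal libraries only, so the filter on low values kept them through that compartment.

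**Figure D3:**
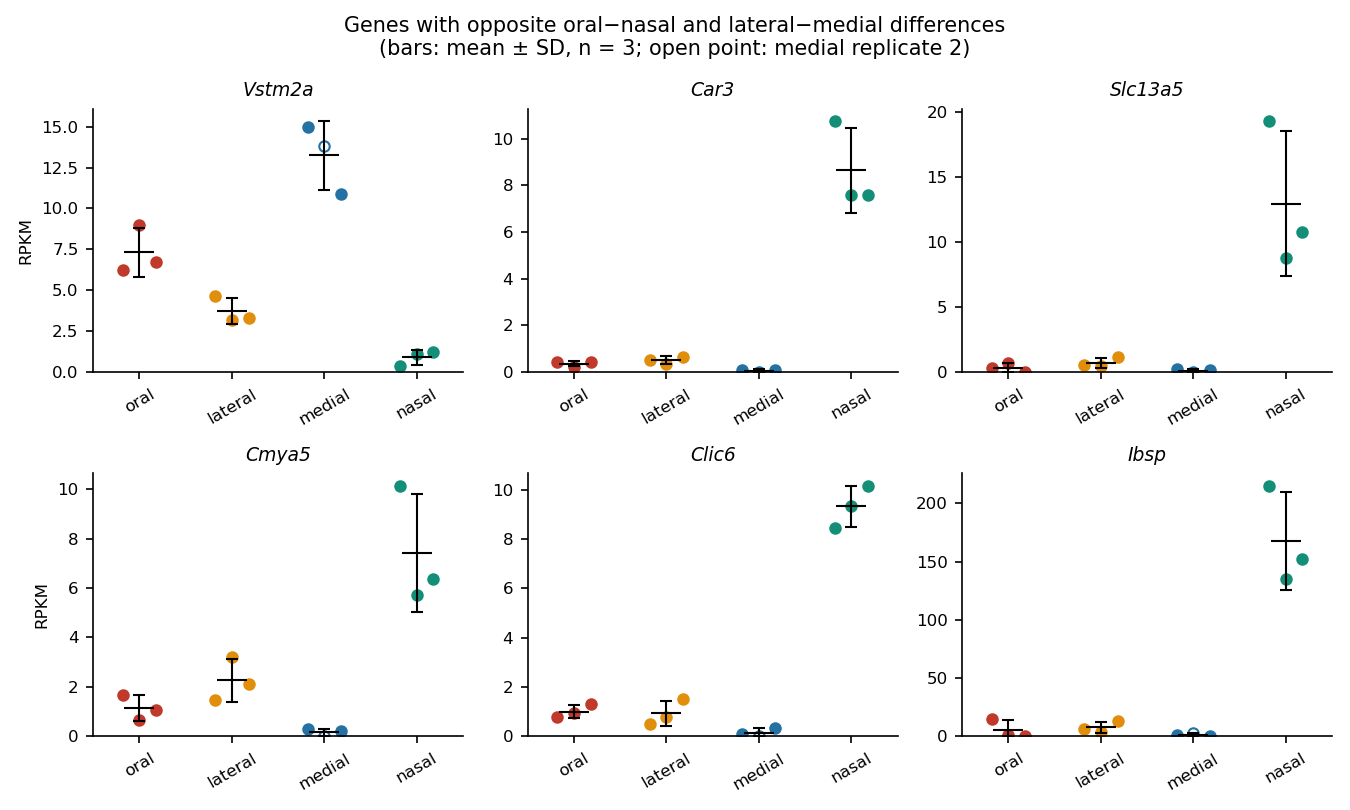
RPKM of Vstm2a, Car3, Slc13a5, Cmya5, Clic6 and Ibsp by posterior compartment, 3 points each with the mean ± SD and medial replicate 2 open. Vstm2a is highest in medial and lowest in nasal, and the other 5 are highest in nasal.

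Genes were then read by pathway, with lists chosen when earlier results of these data were known. Over all genes tested 6093 differences were positive and 5064 negative, with a median of 0.03, 2.28% had an unadjusted P under 0.05 and were higher, and 1.11% were lower. In the FGF list 20 of 24 genes were tested, 12 with positive and 8 with negative differences and a median of 0.45 that fell to 0.19 without medial replicate 2, and 5 were higher at an unadjusted P under 0.05. Beside Fgf10 these were Fgf18, a ligand of bone and cartilage growth, the ETS factors Etv1 and Etv5 and the phosphatase Dusp6, the last 3 being transcriptional targets of FGF signalling. Only Fgf10 passed the adjusted threshold by limma. Fgf18 had 15.04, 18.6 and 17.9 RPKM in oral but 93.6, 7.62 and 10.5 RPKM in lateral, and 11.9, 0 and 3.38 RPKM in medial. Nasal libraries had 2.14 to 5.77 RPKM. The difference was 3.00 (SE 0.99, limma adjusted p = 0.946), and 2.10 without medial replicate 2. Etv5 had 8.97 ± 2.72 RPKM in oral and lateral against 4.54 ± 1.95 in medial and nasal (SD, n = 6), a difference of 1.05 (unadjusted P = 0.00668).

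In the list for the EGF and Notch pathways 10 of 12 tested genes had positive differences, with a median of 0.45, or 0.16 without medial replicate 2, and Hes1 and the receptor Egfr were higher at the thresholds of the study. Egfr had 18.5 to 27.7 RPKM in oral and lateral and 2.41 to 16.3 RPKM in medial and nasal, so the sides did not overlap. Its lateral minus medial difference of 2.69 had a limma adjusted p of 0.0144, but oral exceeded nasal by 0.65 only, and Egfr did not meet the rule of agreement.

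The hedgehog list stayed close to 0 in this contrast. Of 12 tested genes 7 had positive differences, from -0.23 to 0.95 with a median of 0.11, and Hhip, the hedgehog-binding inhibitor and target, alone had an unadjusted P under 0.05 (0.95, limma adjusted p = 0.946). Gli1, a target the study singled out on these samples, had 5.97 to 32.6 RPKM in oral and lateral and 4.20 to 28.9 RPKM in medial and nasal. The difference was 0.40 (SE 0.50, limma adjusted p = 0.946), with oral and nasal means of 22.4 and 22.7 RPKM. For the posterior palate the study reports Gli1 as higher in lateral than in medial. That difference was 0.85 here (SE 0.59, limma adjusted p = 0.775), with means of 16.7 and 8.66 RPKM. Of 34 tested palate transcription factors Osr1 and the early B cell factor Ebf1 were higher at the thresholds of the study and Pax3 lower. In the BMP list 28 genes were tested, and only the antagonist Chrdl1 passed those thresholds, as higher. In the Wnt list of 29 tested genes the factor Tcf7 was lower, at -1.36 (unadjusted P = 0.0193).

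Of 37 tested entries for axon guidance and adhesion 27 had positive differences, and 4 were higher at the thresholds of the study, the adenylyl cyclase Adcy8, the leucine-rich repeat proteins Lrrc3b and Lrrtm1 and the neural adhesion molecule Ncam2. Ncam2 had means of 22.4 RPKM in oral and lateral and 8.63 RPKM in medial and nasal, a difference of 1.66 (SE 0.44), with an oral minus nasal difference of 2.63 and a lateral minus medial difference of 0.69. None of the 4 agreed. The retinoic acid list of 15 tested genes held Crabp1, the cellular retinoic acid binding protein that the study singled out on these samples. Crabp1 had 36.0 ± 22.6 RPKM in medial against 116 ± 2.40 in lateral, but 159 ± 38.8 in oral and 124 ± 44.0 in nasal (SD, n = 3), and did not agree. Agtr2, an angiotensin receptor also singled out there, had 66.1 to 143 RPKM in oral and lateral and 26.9 to 89.4 RPKM in medial and nasal, a difference of 1.15 (limma adjusted p = 0.946) whose lateral minus medial part was 0.86.

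Of 20 tested osteoblast genes 15 had a negative difference and 5 a positive one, with a median of -0.48 against 0.03 for all genes. The 3 that were lower at the thresholds of the study were Ifitm5, Slc8a3 and Tnn, none of which passed the adjusted threshold by limma in the contrast of 6 against 6, and none agreed. Tnn, an extracellular tenascin, had 64.0 ± 6.67 RPKM in nasal, 34.4 ± 15.4 in medial, 24.2 ± 12.58 in lateral and 15.4 ± 6.19 in oral (SD, n = 3). Ibsp, the bone matrix protein bone sialoprotein, had 215, 135 and 152 RPKM in nasal and 0 to 14.9 RPKM in the other 9 libraries. Runx2, the osteoblast master factor, had 96.7 to 109 RPKM in nasal against 13.1 to 69.2 RPKM elsewhere, and Dlx5 39.8 to 74.4 RPKM against 0.303 to 16.1 RPKM. For Ibsp, Runx2 and Dlx5 the medial mean was below the oral and the lateral means, and the 6 against 6 differences of -1.41, -0.48 and 0.24 missed the adjusted threshold by limma. Tnn, Ibsp, Runx2 and Dlx5 were chosen by the study on these samples. Cartilage genes had 11 of 13 negative differences and cell cycle genes 22 of 30, with medians of -0.30 and -0.13 and with no gene past the thresholds of the study.

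Markers of other cell types were read as lists too, and none of their genes passed the adjusted threshold by limma in the contrast of 6 against 6. All 9 endothelial markers had positive differences, with a median of 0.76, and 7 had an unadjusted P under 0.05, Tek and Tie1 with a fold over 2. Their summed RPKM was 183 to 255 in oral and lateral and 81.9 to 204 in medial and nasal. Tie1, a partner receptor of Tek, had 8.42 to 17.3 RPKM against 1.20 to 12.8 RPKM and met the rule of agreement over all 12 libraries but not without medial replicate 2. Other agreeing genes, no list of which was tested, were Aplnr, the apelin receptor of endothelium, at 1.37, Tal1, an endothelial and blood cell factor, at 1.55, the growth factor Pgf at 1.98, Mmrn1 at 1.34 and Angpt1, the ligand of Tek made by cells around vessels, at 1.07. All 5 were chosen after their values were seen and had a limma adjusted p of 0.946, and Aplnr, Tal1 and Pgf no longer agreed without medial replicate 2. Tmem100, the endothelial membrane protein given above, agreed in the other direction, at -1.35. In bulk tissue more cells of a type and more RNA per cell cannot be told apart, and the part of vessel content in the differences of Tek and Tie1 was not tested.

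Of 8 tested epithelial markers 7 had negative differences, with a median of -0.95, and Epcam, Krt14, Krt17 and Sfn were lower at the thresholds of the study. The 14 markers in the table summed to 34.1 to 60.8 RPKM in oral and lateral, 86.2 to 244 RPKM in medial and 48.0 to 87.6 RPKM in nasal, the 244 being medial replicate 2. Krt14, a basal keratin, was lower in lateral than in medial by 3.85 on the log2 scale (limma adjusted p = 0.0144) and by 0.59 in oral than in nasal. Skeletal muscle markers had 7 of 7 positive differences with a median of 1.84, which fell to 1.02 without medial replicate 2, and Acta1, Myh3 and Myl4 were higher at the thresholds of the study. Their sum was highest in lateral replicate 1, at 222 RPKM against 14.9 to 71.9 RPKM in the other 11 libraries. Acta1, skeletal actin, and Myl4, a myosin light chain of embryonic muscle, agreed, with 3.00 to 17.8 RPKM against 0.297 to 11.04 RPKM and 2.86 to 17.0 RPKM against 0 to 3.66 RPKM. No marker of these lists was at 0 in all 12 libraries, and the 12 palate mesenchyme markers, all tested, summed to 973 to 1399 RPKM in oral and lateral and 1036 to 1972 RPKM in medial and nasal, with a median difference near 0. Red cell, macrophage, platelet and nerve markers had no gene past the thresholds of the study, and of 4 tested smooth muscle and pericyte markers Acta2 was lower.

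**Figure D4:**
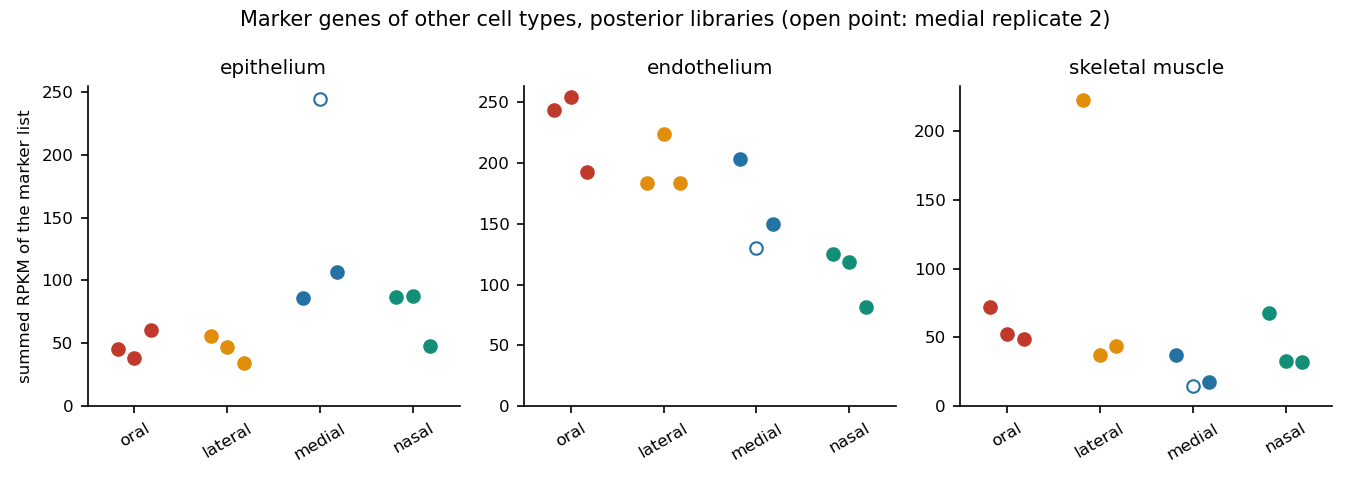
Summed RPKM of epithelial, endothelial and skeletal muscle marker lists in each of the 12 posterior libraries, by compartment, with medial replicate 2 open. Endothelial sums run from 183 to 255 RPKM in oral and lateral and from 81.9 to 204 RPKM in medial and nasal, the highest epithelial sum is 244 RPKM in medial replicate 2, and the highest muscle sum is 222 RPKM in lateral replicate 1.

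The anterior palate, with 13 libraries of the same 4 compartments, gave the nearest comparison and shared no library with the posterior one. Tested in 1 fit of all 25 libraries and 11913 genes, the posterior difference departed from the anterior one for 2 genes by limma (0.0168%), Pax3 among them. Pax3 had 33.2 to 50.8 RPKM in anterior oral and lateral and 23.4 to 54.5 RPKM in anterior medial and nasal, an anterior difference of -0.11 (SE 0.18), so that posterior minus anterior was -1.81 (SE 0.25, adjusted p = 0.00473). Its level was higher in every anterior library than in every posterior one. With the run in that fit limma gave no adjusted p under 0.05 and 387 genes at an unadjusted P under 0.05.

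Other genes had differences of similar sign in both regions. Of the 90 genes that agreed as higher, 68 (75.6%) had a positive anterior difference, against 45.7% of all 11157 genes. Of the 12 that agreed as lower 8 (66.7%) were negative in the anterior palate. Over all 11157 genes the median anterior difference was -0.02 and only 45.7% were positive, so a negative sign was the more common one there. Fgf10, Osr1 and Tek passed the adjusted threshold by limma in the anterior contrast, in which 64 genes did (0.537%). Fgf10 had 3.83 to 15.004 RPKM in anterior oral and lateral and 0.472 to 7.45 RPKM in anterior medial and nasal, a difference of 1.67 (SE 0.32, adjusted p = 0.0163). Osr1 had 78.7 to 114 RPKM against 22.2 to 85.6 RPKM, at 1.42 (SE 0.27, adjusted p = 0.0175), and Tek 14.2 to 21.3 RPKM against 7.47 to 11.3 RPKM, at 0.99 (SE 0.22, adjusted p = 0.0478). Bai3 and Plcl1 had anterior differences of 0.12 and 0.11, and the posterior exceeded the anterior difference by 1.62 (adjusted p = 0.0813) and 1.65 (adjusted p = 0.182), neither past the threshold. Shisa2 had an anterior difference of -0.43, with posterior minus anterior 2.39 (SE 0.46, adjusted p = 0.09999).

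**Figure D5:**
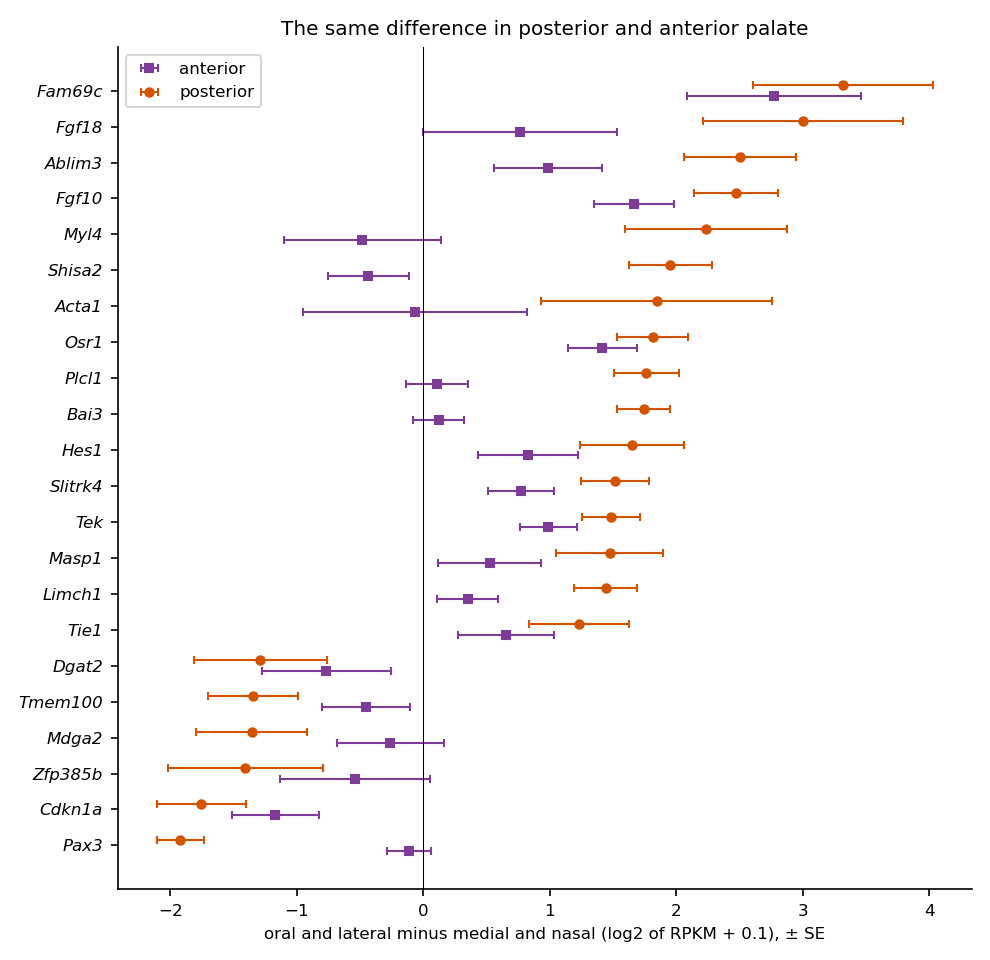
Oral and lateral minus medial and nasal difference on the log2(RPKM + 0.1) scale, with its SE, in the posterior (circles) and anterior (squares) palate for the 22 named genes that agreed, from 1 fit of all 25 libraries. Fgf10, Osr1 and Tek are positive in both regions, and Pax3 is at -1.92 in the posterior and -0.11 in the anterior palate.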

How the data were processed

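Per the study's methods and the deposited labels, total RNA of laser-captured palate was amplified before library construction and sequenced as single reads of 50 bases. The authors aligned the reads to mm9 with TopHat, per the submitters' processing notes, removed duplicate and multiply aligned reads and deposited 1 table of RPKM per gene and library, so raw counts were not used here. Replicates are labelled samples, and nothing states that they are separate litters, so p-values measure the spread between these samples. In the fit of 2 sides that spread also includes the difference between the 2 compartments of a side. The 11157 genes with at least 5 RPKM in 3 of 12 libraries were fitted on log2(RPKM + 0.1) with limma 3.58.1 (lmFit, eBayes, two-sided, R 4.3.3), p-values adjusted by Benjamini-Hochberg over all genes, in a fit of 2 sides, 1 of 4 compartments for the axes, and 1 of 8 compartments and 25 libraries (11913 genes) for posterior minus anterior. A log2 fold on this scale understates the change of low genes. The exact permutation p was adjusted over the same genes. Read totals were inferred from steps of low RPKM values and carry that uncertainty. Sequences came from RefSeq tables of GRCm38.p6, table positions from mm9. Runs were read from the column heads of the study's supplementary tables. The members, rule and gene lists were chosen with earlier results of these data known. Named genes were, in each direction, agreeing genes past the adjusted threshold, filled by rising P to 12 with those past the study's thresholds (6 were lower), members of the lists that agreed and passed those thresholds, 9 genes singled out by the study, and up to 4 calls a direction of the axis and region tests by size. Hhip, Etv5, Egfr, Ncam2, Tcf7, Krt14, Dio3 and other genes given by name only were chosen after their values were seen. A further call of the region test is not reported here. Alternatives covered the pseudocount, filter, scaling, variance model, run, replicate block and each library left out.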

Additional observations from a re-analysis of the deposited data

Results flagged for a closer look

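The posterior Pax3 difference departed from the anterior one in a limma test of the difference itself, by -1.81 on the log2 scale (adjusted p = 0.00473). The posterior difference was -1.92 and the anterior one -0.11. It did not keep an adjusted p under 0.05 with the sequencing run in the fit.

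Single libraries stood far from the other 5 of their side in 7 of 70 sets of 6 values, as the gap to the nearest value over the whole range on the log2 scale, past Dixon's critical value. About 1 in 20 sets would be past it by chance. In 4 of the 7 the library was medial replicate 2, for Ablim3 (0.765), Fgf18 (0.649), Myl4 (0.697) and Dio3 (0.841), all 4 at 0 RPKM there. In the other 3 it was lateral replicate 1, for Zfp385b (0.730, at 0.616 RPKM), Fgf18 (0.646, at 93.6 RPKM) and Runx2 (0.656, at 13.1 RPKM). That library also held the highest sum of skeletal muscle markers, 222 RPKM, and the part of either measure in these values was not tested.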

How the results depend on the processing

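Direction held for the named genes that agreed under all alternatives run, with log2 differences of 1.87 to 2.68 for Fgf10, 1.32 to 1.88 for Bai3 and -2.28 to -1.68 for Pax3. The alternatives refitted the libraries on which these genes were chosen, so a kept direction is a description. Signs changed for Dlx5 in 6, Cmya5 in 7 and Clic6 in 4 of 23 alternatives, none of these past the adjusted threshold. An adjusted p under 0.05 was kept in 14 of 23 by Pax3, 8 by Fgf10 and 6 by Bai3. Counts, with genes at an unadjusted P under 0.05 in brackets beside a 0, moved more, and apart from fewer samples or another set of genes the cause was not tested. For the adjusted threshold, from 3 genes, limma gave 66 with array weights, 5 with quantile normalization, 5 with the 4 compartment means fitted, 1 at 1 RPKM, 0 (363) with a mean-variance trend, 0 (792) with no filter, 0 (503) with the run, 0 (579) without the replicate 1 libraries, and 0 to 5 with 1 library left out. It was 0 without lateral replicate 1 (365) or 3 (308) or oral replicate 1 (332) or 3 (294), 1 without oral or lateral replicate 2, and 5 without medial replicate 2. At the thresholds of the study, from 126, there were 206 with array weights, 339 at 1 RPKM, 525 with no filter, 196 with the run and 97 to 207 with 1 library left out, the 207 without medial replicate 1. Agreeing genes, from 102, were 60 with array weights, 301 at 1 RPKM, 456 with no filter, 33 at a difference of 1.5, 32 when no overlap replaced the rule, 51 with a pseudocount of 1, 62 with quantile normalization, 193 without the replicate 1 libraries and 60 to 131 with 1 library left out, the 60 without medial replicate 2. For oral against nasal, from 7, limma gave 589 with array weights, 1 with the trend, 4 and 29 with pseudocounts of 0.01 and 1, 49 with quantile normalization, 0 (319) with the run, 0 (417) without the replicate 1 libraries, 114 with that pair alone and 1 to 64 with 1 library left out, with 64 without medial replicate 2, 1 without lateral replicate 2, nasal replicate 3 or oral replicate 1 or 3, 2 without nasal replicate 1 or 2 and 3 without oral replicate 2. For lateral against medial, from 5, it gave 241 with array weights, 10 at 1 RPKM, 3 with the trend, 8 with no filter, 2 with quantile normalization, 1 with the run, 0 (199) with the pair alone, 0 (556) without the replicate 1 libraries and 0 to 12, with 0 without lateral replicate 1 (520) or 2 (301), 9 without medial replicate 1 and 12 without medial replicate 3. For the difference between axes, from 7, it gave 365 with array weights, 3 with no filter, 3 and 19 with pseudocounts of 0.01 and 1, 4 with quantile normalization, 1 with the run, 0 (444) without the replicate 1 libraries and 2 to 29, the 29 without medial replicate 2 and the 2 without lateral replicate 3 or nasal replicate 1. For posterior minus anterior, from 2, it gave 6 with quantile normalization, 0 (387) with the run, 0 (397) without the replicate 1 libraries and 2 to 8, the 8 without medial replicate 3, and array weights did not converge. The replicate block gave 0 genes (447) for the main contrast, 1 for oral against nasal and 2 for lateral against medial. The labels give no shared litter or day for a replicate number, and 9 of 18 same-numbered pairs had deviation correlations over 0.1 (-0.16 to 0.43), so the numbers were not taken as pairs, while 10 of 12 libraries correlated best with their own number, a hint from the data. At 5 RPKM on 2000 bases counting error alone was 12.65% to 20.7%, so smaller differences in single libraries were not detectable.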

Other observations

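On chromosome 12, Dio3, the deiodinase that inactivates thyroid hormone, and Dio3os, the RNA transcribed from its other strand, both agreed as higher in posterior oral and lateral, chosen after their values were seen. Dio3 had 12.3, 15.1 and 18.3 RPKM in oral, 11.3, 12.58 and 6.21 RPKM in lateral, 4.13, 0 and 2.91 RPKM in medial and 5.64, 3.195 and 3.42 RPKM in nasal, so that the sides did not overlap. The difference was 2.53 (SE 0.83, limma adjusted p = 0.946), and 1.65 (adjusted p = 0.0566) without medial replicate 2. Dio3os differed by 2.70 (SE 0.94, limma adjusted p = 0.946). No use of strand was stated for the counting. The mm9 entries of the pair do not overlap, with Dio3os ending at 111516339 and Dio3 starting at 111517440. Of other genes of the same imprinted cluster Dlk1 differed by 0.36, Meg3 by 0.26, Rian by 0.24, Rtl1 by 0.16 and Mirg by 0.78. Its microRNA entries Mir299, Mir493, Mir495, Mir379, Mir377 and Mir381, picked because they agreed, were higher at 3.78, 3.10, 2.62, 1.81, 1.72 and 1.41. None had an adjusted p under 0.05 by limma. Only Mir493 and Mir495 still agreed without medial replicate 2, and Mir377 fell to 0.36. On entries this short 1 read is worth far more RPKM than on 2000 bases. Mir381 had means of 3.01 RPKM in oral and lateral and 1.76 RPKM in medial and nasal, so its log2 value rests on few reads.

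Further agreeing genes are given as values, named after these were seen. Madcam1, an adhesion molecule of vessel walls, and Pcdh11x, a protocadherin, did not overlap between the sides, at 2.54 and 2.27 (limma adjusted p = 0.946 for each), with medial replicate 2 at 0 RPKM for both. Odz2, a teneurin, differed by 2.45, Nkain2 by 2.35, Ephb1, an ephrin receptor, by 1.69 and Nxph1, a neurexophilin, by 1.60, and of these Odz2 alone still agreed without that library. Fmod, a collagen-binding proteoglycan of tendon, differed by 1.79, from 6.41 to 31.6 RPKM against 1.04 to 14.8 RPKM, and Enpp1, which makes the mineralization inhibitor pyrophosphate, by 2.52, with 0.440 to 14.8 RPKM against 0 to 2.92 RPKM.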
